A study of Mus musculus with 6 samples.

Results

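The genes described here are 33 genes of protein folding in the endoplasmic reticulum (ER), of the disposal of misfolded proteins and of the unfolded protein response, taken as a named list. They were measured in livers of male C57BL/6 mice, 8 weeks old before acclimatisation. In the Vascepa group (3 arrays) mice received Vascepa for 7 days and then a high-fat diet for 6 weeks. In the vehicle group (3 arrays) they received vehicle for 7 days and then the same diet for 6 weeks, so neither group was without the diet. Vascepa is icosapent ethyl, a purified omega-3 drug. A transcript cluster annotated to that gene alone represented 32 of the 33 genes, out of 13493 genes compared in all. The remaining gene, Pdia4, had only a cluster shared with Mir704 and is given apart. All 32 passed the intensity filter, a mean log2 value over the 6 arrays of at least 2.65. Whether the 3 samples within each group are different mice is not given in the labels, and the p-values therefore reflect only sample-to-sample spread, part of which may be technical.

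Hepatocytes secrete most plasma proteins, and these fold in the ER with the help of chaperones such as BiP, the product of Hspa5. When unfolded protein accumulates, the membrane sensors IRE1 (gene Ern1), PERK (gene Eif2ak3) and ATF6 signal to the nucleus, where ATF6 and the spliced form of XBP1 raise the transcription of chaperones and of the genes of ER-associated degradation. That degradation draws misfolded proteins back into the cytosol through a membrane complex built around SEL1L and the ubiquitin ligase HRD1 (gene Syvn1). The arrays measured total transcript of each gene, so the splicing of Xbp1 and the activity of the sensors were not measured.

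The ER stress response element (ERSE) is the sequence through which ATF6 and XBP1 are known to act on chaperone genes. Chaperone genes make up much of this list, so matches among these genes are not independent of how it was chosen. The ERSE is shown as a description of the promoters. It was searched as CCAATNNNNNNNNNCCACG, on either strand, from 250 bases before to 50 bases after the start of each gene in the RefSeq promoter table of mouse build GRCm38.p6. Of the 33 genes, 28 had a promoter there, and 9 of the 28 held a match. Among all 32851 promoters of that table, those of these 28 genes included, 39 held a match, or 0.119%. The longest stretch shown is the 250 bases before the start of Hspa5, written in lower case with matched letters in capitals. It holds an ERSE whose first base lies 65 bases before the start, and TGACGTG, a core bound by XBP1 and ATF6, whose first base lies 157 bases before the start.
Hspa5, chr2:34771840-34772089, plus strand: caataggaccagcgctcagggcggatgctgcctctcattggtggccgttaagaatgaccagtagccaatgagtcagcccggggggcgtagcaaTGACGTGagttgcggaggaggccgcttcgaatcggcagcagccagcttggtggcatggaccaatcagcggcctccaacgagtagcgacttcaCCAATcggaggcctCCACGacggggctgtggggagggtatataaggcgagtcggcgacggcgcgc
TGACGTG was matched in 2.01% of all promoters and in no other of the 28 genes.

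The other 8 genes with an ERSE are shown with 10 bases on each side, 5′ to 3′ on the strand of the gene, with the paired letters in capitals and the spacer of 9 bases in lower case. The first 5 lines read CCAAT then CCACG on that strand, and the last 4 hold the match on the opposite strand. Hsp90b1 held both kinds.
Dnajc3, chr14:118937817-118937855, plus strand: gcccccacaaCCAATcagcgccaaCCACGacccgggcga
Pdia6, chr12:17266481-17266519, plus strand: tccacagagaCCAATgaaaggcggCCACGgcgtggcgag
Canx, chr11:50325790-50325828, minus strand: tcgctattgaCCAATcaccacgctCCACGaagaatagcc
Syvn1, chr19:6046522-6046560, plus strand: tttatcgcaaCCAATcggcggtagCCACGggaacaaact
Hsp90b1, chr10:86705628-86705666, minus strand: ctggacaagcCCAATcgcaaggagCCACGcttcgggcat
Hsp90b1, chr10:86705523-86705561, minus strand: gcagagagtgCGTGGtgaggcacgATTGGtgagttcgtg
Calr, chr8:84847065-84847103, minus strand: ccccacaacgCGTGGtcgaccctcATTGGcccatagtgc
Creld2, chr15:88819510-88819548, plus strand: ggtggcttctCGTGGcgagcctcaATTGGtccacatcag
Derl3, chr10:75893232-75893270, plus strand: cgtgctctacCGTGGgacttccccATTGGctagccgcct
Herpud1 held a different form, ERSE-II, searched as ATTGGNCCACG, 52 bases before its start.
Herpud1, chr8:94386367-94386397, plus strand: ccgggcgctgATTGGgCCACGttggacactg
ERSE-II matched 0.0365% of all promoters, and the other match among these genes, in Dnajb11, began 8 bases after the start. The matched genes were mostly chaperones, with Syvn1, Derl3 and Herpud1 from degradation, and none of the 3 sensor genes with a promoter in the table (Xbp1, Ern1 and Eif2ak3) held any of these letters in this window.

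Before the values, the arrays themselves differed within groups. Vascepa replicate 3 correlated least with the other arrays, at a mean r of 0.938, against 0.959 to 0.973 for the other arrays. The mean log2 level of 97 small nucleolar RNA probes was 4.61, 5.55 and 6.01 on Vascepa replicates 1, 2 and 3, and 4.76, 5.42 and 4.92 on vehicle replicates 1, 2 and 3. The medians of the hepatocyte markers lay at 0.027, −0.058 and −0.37 log2 units from the vehicle mean on the Vascepa arrays, and at 0.038, −0.036 and −0.007 on the vehicle arrays. The 17 hepatocyte markers tested, Alb among them, were bright on all arrays, as a liver label implies. Of the plasma cell markers, whose cells also rely heavily on these ER genes, Jchain, Tnfrsf17 and Irf4 lay under the intensity filter. Mzb1, Prdm1 and Cd79a passed it with group means of 2.89 to 3.42. Sdc1 also passed, with means of 5.72 in Vascepa and 6.10 in vehicle livers. The sum of the list's log2 levels ran from 21.1 to 22.9 on the Vascepa arrays and from 21.1 to 22.2 on the vehicle arrays. Kupffer cell markers summed to 75.3 to 79.9 on the Vascepa arrays, below the 80.1 to 81.1 of the vehicle arrays. The part of these cells in the ER values was not tested.

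Most of the ER genes had lower means in Vascepa than in vehicle livers, and none of these differences passed the test. Of the 32 genes 30 were lower and 2 were higher as deposited, with a median log2 difference of −0.27, while 22 were lower and 10 higher when each array was centred on the median of the genes tested. Among all 13493 genes 60.1% were lower and 39.9% higher as deposited, while 44.2% were lower after that centring, and the median of all genes moved by 0.10, from −0.063 as deposited to 0.037. Relative to that median the ER genes lay at −0.21 under either scaling, which had to be so because centring shifts every difference by the same amount. Under a stricter filter, at the 75th percentile of probe means, 73.3% of all genes and 28 of 29 ER genes were lower. The distance was then −0.14. With the filter used above it was −0.16 after repeated quantile normalization and 0.024 with the small nucleolar RNA level of each array as a covariate. With an array left out it ran from −0.36 (without Vascepa replicate 1) to 0.033 (without vehicle replicate 1). Limma called 0 of the 32 genes at an adjusted p under 0.05, and 0.0% of all genes. At an unadjusted p under 0.05 it also marked 0 of the 32, against 2.68% of all genes. Adjusted p-values of the 32 genes ranged from 0.976 to 0.998.

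The direction rested on particular arrays. Without Vascepa replicate 3, 21 of the 32 genes were lower and the median was −0.047. Without vehicle replicate 1, 18 of the 32 were lower and the median was −0.028. Without Vascepa replicate 1 the median was −0.45, and without vehicle replicate 2 it was −0.43. With the small nucleolar RNA level of each array as a covariate, 17 genes were lower and 15 higher, and the median was −0.0051. In bulk liver, fewer cells of a type and less RNA per cell cannot be told apart.

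**Figure D1:**
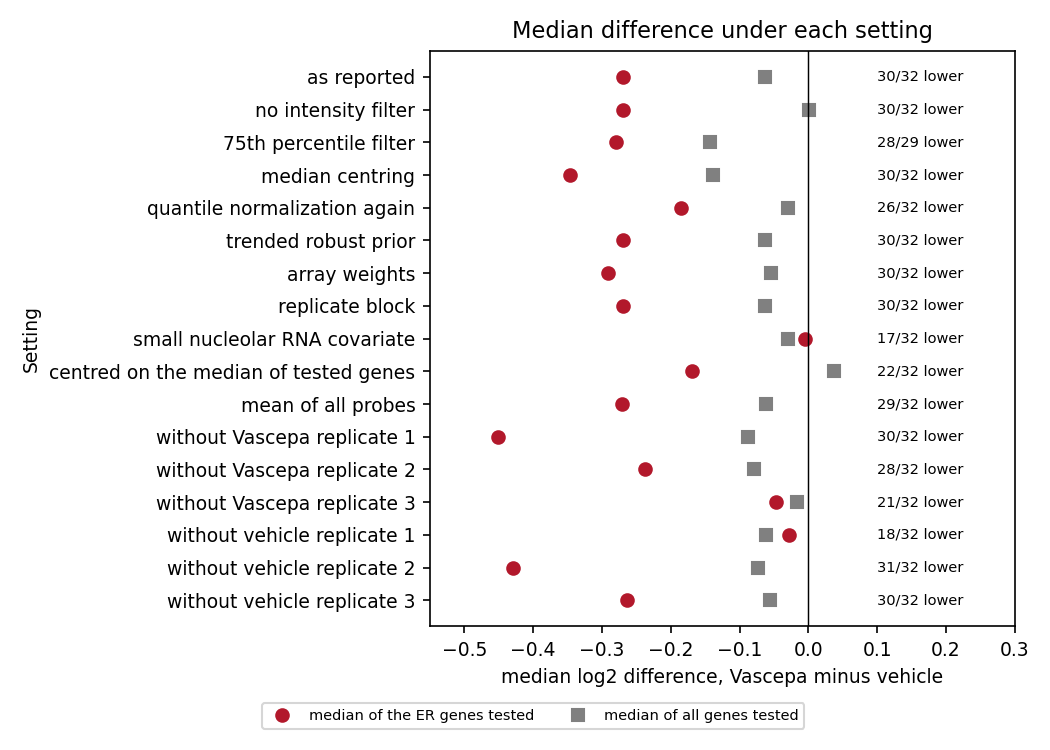
Median log2 difference, Vascepa minus vehicle, of the ER genes (red circles) and of all genes tested (grey squares) under each processing setting, with the number of ER genes lower in Vascepa livers at the right. The ER median lies at −0.27 as reported, at −0.028 without vehicle replicate 1 and at −0.0051 with the small nucleolar RNA covariate.

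The 4 genes of sensing and signalling had a median log2 difference of −0.11, and 3 of the 4 were lower as deposited (2 after centring on the genes tested). Their median was 0.15 without Vascepa replicate 3. Xbp1, the transcription factor gene whose RNA IRE1 splices, read 9.16, 8.73 and 8.60 on the Vascepa arrays, against 9.02, 8.72 and 8.77 on the vehicle arrays. The groups overlapped fully and their means, 8.83 and 8.84, were nearly equal (difference −0.0052 ± 0.21, limma SE, 95% interval −0.49 to 0.48). Xbp1 was higher in Vascepa livers, by 0.095, after centring on the genes tested.

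Atf6, the membrane-bound transcription factor, read 8.30, 7.67 and 6.77 on the Vascepa arrays, against 8.17, 7.32 and 7.88 on the vehicle arrays. Vascepa livers held both the highest and the lowest value (difference −0.21 ± 0.40). Ern1, which encodes the kinase and nuclease IRE1 alpha, read 7.28, 6.07 and 5.78 on the Vascepa arrays, against 6.59, 5.73 and 6.57 on the vehicle arrays. It was the only gene of the 4 with a higher Vascepa mean (0.079 ± 0.42), and without Vascepa replicate 1 its difference was −0.37. Eif2ak3, which encodes PERK, the kinase that slows translation, read 4.57, 3.79 and 3.53 on the Vascepa arrays, against 4.66, 4.12 and 4.21 on the vehicle arrays. Its lowest values came from Vascepa replicates 2 and 3, and Vascepa replicate 1 lay within the vehicle range (difference −0.36 ± 0.30). Limma passed none of the 4 genes, with adjusted p from 0.976 to 0.998.

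The 15 chaperones and folding enzymes with a cluster of their own were all lower in the mean as deposited, with a median log2 difference of −0.22 and a range of −0.44 to −0.045. Their median was 0.061 without vehicle replicate 1 and 0.070 with the small nucleolar RNA covariate, so the direction turned. After centring on the genes tested it was −0.12, and 6 of the 15 turned higher (Dnajc3, Erp44, Hsp90b1, Manf, P4hb and Pdia3). Hspa5, the gene of the central chaperone BiP, read 8.11, 7.21 and 7.24 on the Vascepa arrays, against 8.65, 7.11 and 7.58 on the vehicle arrays. The 2 highest values were replicate 1 of each group, and the vehicle range enclosed the Vascepa range. The means were 7.52 ± 0.51 in Vascepa livers and 7.78 ± 0.79 in vehicle livers (SD, n = 3 each), a difference of −0.26 ± 0.42 (limma SE). Without vehicle replicate 1 the difference was 0.18.

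Hsp90b1, which encodes GRP94, the HSP90 of the ER, read 11.09, 10.42 and 9.93 on the Vascepa arrays, against 11.24, 9.85 and 10.59 on the vehicle arrays. The vehicle range again enclosed the Vascepa range (difference −0.076 ± 0.41). Hyou1, a nucleotide exchange factor for BiP, had the widest spread of the 15, from 6.62 to 8.29 on the Vascepa arrays and from 6.32 to 8.66 on the vehicle arrays (difference −0.22 ± 0.62). Creld2, a gene induced by ER stress, ran from 6.39 to 7.57 on the Vascepa arrays and from 6.35 to 8.30 on the vehicle arrays. These 4 genes all had their highest value on vehicle replicate 1 and their lowest on vehicle replicate 2 (an observation made after the values were seen).

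Dnajb9, the BiP partner ERdj4, had the smallest p of the 32 genes. It read 8.52, 8.71 and 8.49 on the Vascepa arrays, against 9.24, 9.14 and 8.68 on the vehicle arrays. Vascepa values were close together and only vehicle replicate 3, at 8.68, fell below the highest of them. The means were 8.58 ± 0.12 in Vascepa livers and 9.02 ± 0.30 in vehicle livers (SD, n = 3 each). The difference was −0.44 ± 0.21, with a 95% interval of −0.92 to 0.040 and an adjusted p of 0.976 (limma). It lay between −0.61 and −0.33 when any of the 6 arrays was left out, and was −0.45 with the small nucleolar RNA covariate and −0.13 with array weights. Its RefSeq promoter held none of the 3 motifs in the window searched.

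Sdf2l1, which works with BiP and ERdj3, read 6.54, 6.40 and 6.67 on the Vascepa arrays, against 7.23, 6.65 and 6.46 on the vehicle arrays. Vehicle replicate 1 alone lay above the Vascepa range (difference −0.24 ± 0.24), and without it the difference was −0.018. Among the other BiP partners, Dnajb11, the gene of ERdj3, differed by −0.19 ± 0.33. Dnajc3, an inhibitor of PERK, differed by −0.079 ± 0.29.

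The lectin chaperones calnexin and calreticulin hold glycoproteins while they fold. Calr read 11.20, 10.52 and 10.12 on the Vascepa arrays, against 11.35, 10.49 and 10.85 on the vehicle arrays, and differed by −0.28 ± 0.33. Canx, of calnexin, differed by −0.29 ± 0.44. Pdia3, their partner that forms disulfide bonds, differed by −0.096 ± 0.27, and Pdia6, a further isomerase, by −0.33 ± 0.34. None of these differences exceeded its standard error. P4hb, the founding protein disulfide isomerase and a subunit of the triglyceride transfer protein that loads lipoproteins, was the steadiest of the 32 genes. It ran from 10.50 to 10.69 on the Vascepa arrays and from 10.58 to 10.77 on the vehicle arrays, a difference of −0.075 ± 0.17.

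Erp44, which returns client proteins from the Golgi, differed by −0.058 ± 0.23. Manf, a secreted protein released in ER stress, differed by −0.045 ± 0.21. The shared Pdia4 and Mir704 cluster read 7.50, 6.67 and 6.38 on the Vascepa arrays, against 7.94, 6.72 and 7.34 on the vehicle arrays. It followed the other isomerases in having the highest value on vehicle replicate 1, its log2 difference was −0.48, and it was not tested.

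**Figure D2:**
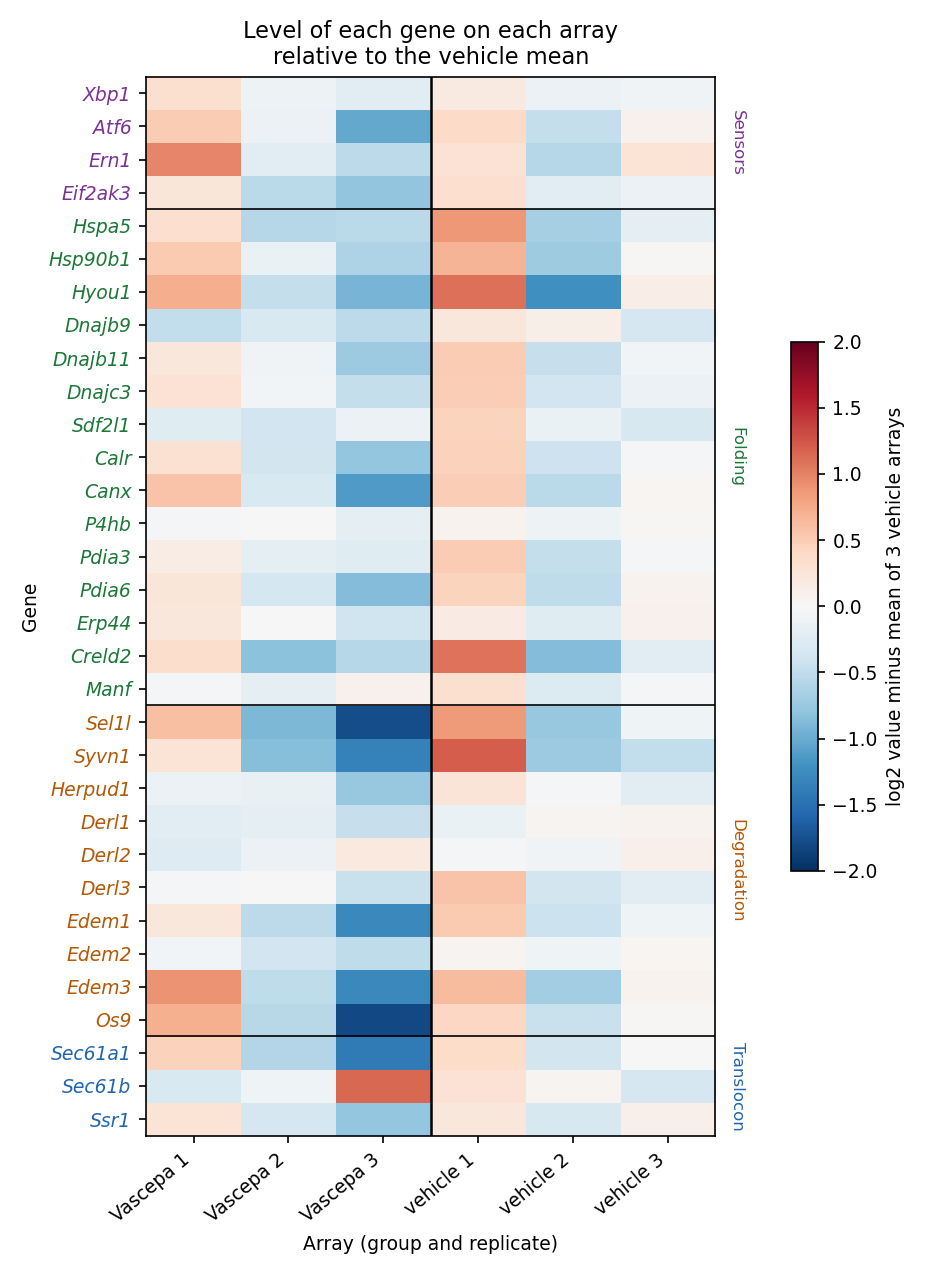
Log2 value of each ER gene on each array minus that gene's mean over the 3 vehicle arrays (red higher, blue lower), with Vascepa arrays left of the line and vehicle arrays right of it. Replicate 1 of both groups is mostly red, and Vascepa replicates 2 and 3 and vehicle replicate 2 are mostly blue.

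The 10 genes of ER-associated degradation were all lower in the mean as deposited, with a median log2 difference of −0.33, the furthest from 0 of the 4 roles. The median stayed below 0 with every array left out, between −0.68 and −0.15, and was −0.14 with the small nucleolar RNA covariate. Derl2 turned higher, at 0.041, after centring on the genes tested. Sel1l and Syvn1, the adaptor and the ubiquitin ligase of the central complex, were 1.61-fold and 1.57-fold lower in Vascepa livers. They were the 2 of 32 genes with a fold of at least 1.5, against 3.39% of all genes in either direction and 2.52% lower. That size rested on single arrays, since leaving out Vascepa replicate 3 gave Sel1l a log2 difference of −0.15, leaving out Vascepa replicate 1 gave −1.33, and the value was −0.056 with the small nucleolar RNA covariate.

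Sel1l read 8.76, 7.26 and 6.39 on the Vascepa arrays, against 9.01, 7.40 and 8.07 on the vehicle arrays. The Vascepa arrays spanned more than 2 log2 units and enclosed 2 of the 3 vehicle values (difference −0.69 ± 0.62). Syvn1 read 6.52, 5.39 and 4.89 on the Vascepa arrays, against 7.46, 5.53 and 5.76 on the vehicle arrays. Vehicle replicate 1 stood above all others, and without it the difference was −0.043. Sel1l and Syvn1, like Calr, Pdia4, Sec61a1 and Sec61b, were chosen for values on every array after their values were seen. Limma called neither as deposited (adjusted p = 0.976 for each).

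Herpud1, which helps assemble that complex and is a classical stress target, read 10.09, 10.04 and 9.44 on the Vascepa arrays, against 10.45, 10.17 and 9.98 on the vehicle arrays. Vascepa replicates 1 and 2 lay just above the lowest vehicle array (difference −0.34 ± 0.24). Derl1, a channel protein of retrotranslocation, was the only one of the 32 genes whose groups did not overlap, against 8.24% of all genes in either direction and 5.11% lower. It read 7.55, 7.58 and 7.32 on the Vascepa arrays, against 7.64, 7.83 and 7.84 on the vehicle arrays. The means were 7.48 ± 0.14 in Vascepa livers and 7.77 ± 0.11 in vehicle livers (SD, n = 3 each). The difference was −0.29 ± 0.18, with an adjusted p of 0.976 (limma), and it lay between −0.35 and −0.21 with any array left out.

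Derl3, the derlin most used in secretory cells, read 3.90, 3.95 and 3.49 on the Vascepa arrays, against 4.51, 3.57 and 3.72 on the vehicle arrays. Vehicle replicate 1 alone lay above the Vascepa range, and without it the difference was 0.13 in place of −0.16. Derl2 differed by −0.059 ± 0.19. Its second cluster, not used in the comparison, had the opposite sign at 0.18, and the cluster shared with Mis12 lay at −0.069.

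The EDEM proteins trim mannose from misfolded glycoproteins, and OS9 is a lectin that reads the trimmed sugar. Edem1 differed by −0.53 ± 0.40 and Edem3 by −0.30 ± 0.56. Without Vascepa replicate 3 the Edem1 difference was −0.14, and without Vascepa replicate 1 it was −0.91. Edem2 differed by −0.32 ± 0.19. It had the narrowest vehicle values of the 3 EDEM genes, from 6.50 to 6.63, against 6.07 to 6.52 on the Vascepa arrays. A second, dimmer Edem1 cluster gave −0.055. Os9 ran from 6.33 to 8.84 on the Vascepa arrays, which enclosed the vehicle range of 7.69 to 8.55, and differed by −0.55 ± 0.57.

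The translocon carries new proteins into the ER. Its 3 genes had a median log2 difference of −0.28. That median also stayed below 0 with every array left out, between −0.55 and −0.064. With the small nucleolar RNA covariate it was −0.012. Sec61a1, the pore of the translocon, read 8.78, 7.72 and 6.90 on the Vascepa arrays, against 8.68, 7.94 and 8.32 on the vehicle arrays. Replicates 2 and 3 of the Vascepa group lay below every vehicle array and replicate 1 above every one (difference −0.51 ± 0.45). Its difference ran from −1.002 to −0.064 when an array was left out, the ends being those without Vascepa replicates 1 and 3, and was −0.062 with the small nucleolar RNA covariate. Ssr1, of the complex beside the pore, differed by −0.28 ± 0.29, and its second cluster by −0.35. Sec61b, a small subunit of the channel, was the exception, at 2.82, 3.04 and 4.28 on the Vascepa arrays, against 3.41, 3.17 and 2.79 on the vehicle arrays. Its higher mean (0.26 ± 0.38) rested on Vascepa replicate 3, without which the difference was −0.19. Both Sec61b clusters were dim, with means of 3.25 and 3.12 over the 6 arrays.

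**Figure D3:**
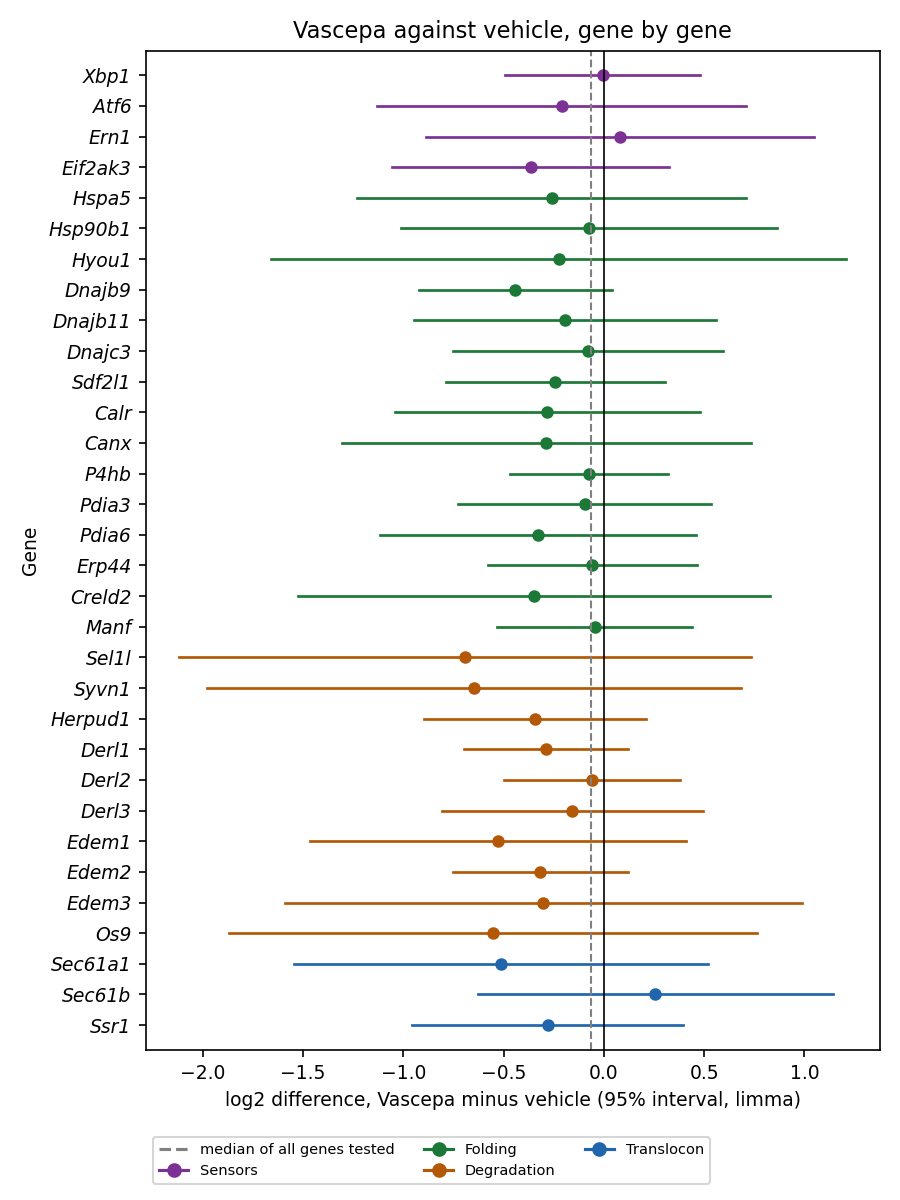
Log2 difference, Vascepa minus vehicle, of each ER gene (points) with limma's 95% interval (lines), coloured by role, and the median of all genes tested (dashed line, −0.063). All 32 intervals include 0, and of the 30 genes lower as deposited 8 turn higher after centring on the genes tested (Derl2, Dnajc3, Erp44, Hsp90b1, Manf, P4hb, Pdia3 and Xbp1).

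The larger differences lay between arrays of the same group. The SD within groups had a median of 0.49 log2 units over the 32 ER genes, against 0.29 over all genes tested. Of the 32 genes, 24 lay above the median of all genes, and 14 lay above its 90th percentile of 0.58. Hyou1 and Sel1l had within-group SDs of 1.03 and 1.02, and Syvn1, Os9 and Edem3 of 0.95, 0.94 and 0.92. At the other end P4hb, Derl1, Edem2 and Derl2 had within-group SDs of 0.098, 0.13, 0.17 and 0.18. The share of a gene's variance that lay between Vascepa and vehicle had a median of 6.37% over the ER genes and 11.8% over all genes. It exceeded 50% in 1213 of all 13493 genes tested and in 3 of the 32 ER genes. These 3 were Derl1 at 65.9%, Dnajb9 at 58.3% and Edem2 at 56.1%. Their within-group SDs, at most 0.23, were below the median of all genes.

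**Figure D4:**
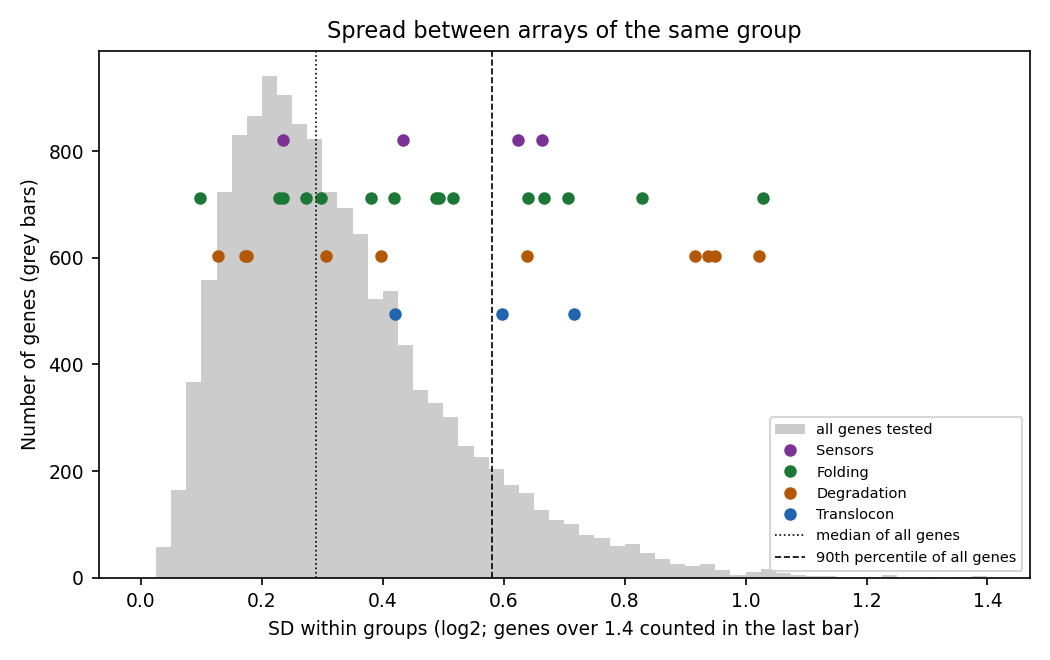
Pooled SD between arrays of the same group for all 13493 genes (grey bars, number of genes) and for each ER gene (points, coloured by role, at arbitrary heights). Of the 32 ER genes 14 lie right of the 90th percentile of all genes, at 0.58 log2 units.

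The median level of the ER genes varied from array to array within both groups. Relative to the vehicle mean, the median of the 32 genes lay at 0.25, −0.31 and −0.60 on Vascepa replicates 1, 2 and 3, and at 0.43, −0.40 and −0.030 on vehicle replicates 1, 2 and 3. The highest value was on vehicle replicate 1 in 20 of the 32 genes, against 16.8% of all genes, and on Vascepa replicate 1 in 9, against 22.9% of all genes. The lowest value was on Vascepa replicate 3 in 22 of the 32, against 38.8% of all genes, and on vehicle replicate 2 in 7, against 9.95% of all genes. The array order of the ER median ran nearly opposite to that of the small nucleolar RNAs, which were lowest on replicate 1 of both groups and highest on Vascepa replicate 3. The hepatocyte marker medians, given above, were also highest on replicate 1 of both groups and lowest on Vascepa replicate 3. So was the median of 24 further ER folding genes, at 0.082, −0.23 and −0.58 on the Vascepa arrays. On the vehicle arrays it lay at 0.086, −0.17 and −0.019. Not every list did so, and Kupffer cell markers were lowest on Vascepa replicate 1, at −0.48. The part of the small nucleolar RNA level, or of what it reflects, in the ER differences was not tested.

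**Figure D5:**
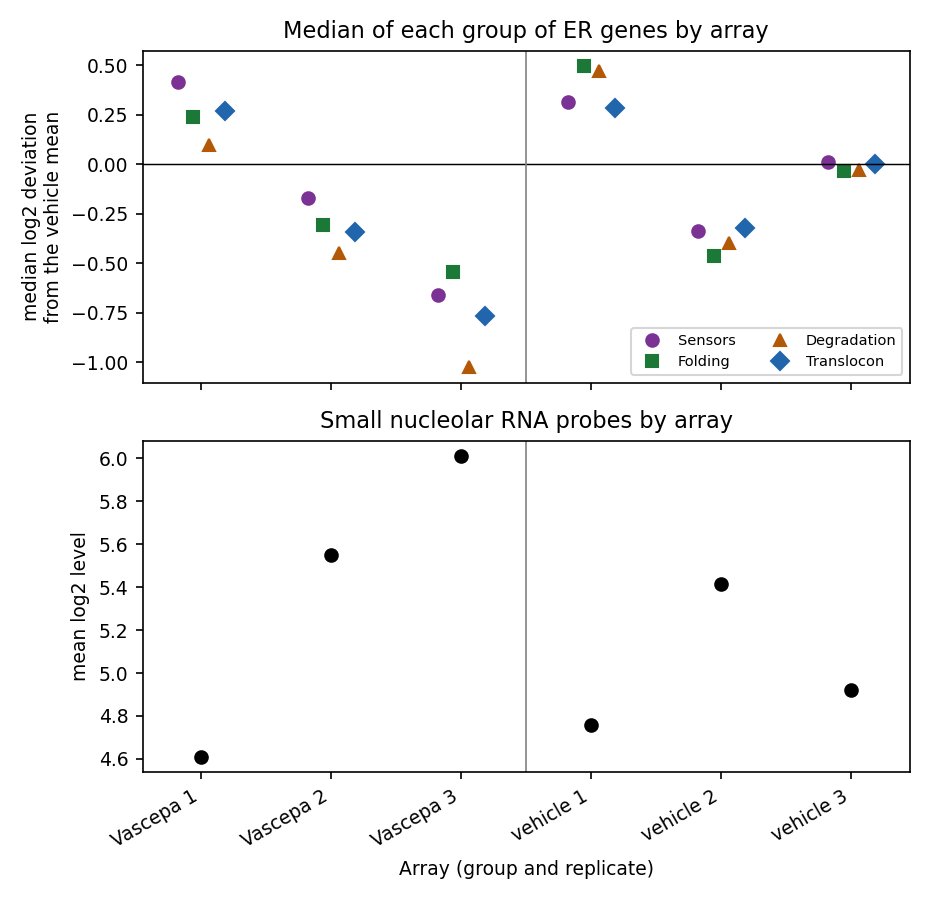
Top, median log2 deviation from the vehicle mean of the ER genes of each role, by array. Bottom, mean log2 level of 97 small nucleolar RNA probes on the same arrays, lowest at 4.61 on Vascepa replicate 1 and highest at 6.01 on Vascepa replicate 3, where the ER medians are lowest.

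Roles differed in which array was lowest. Among the chaperones and folding enzymes 6 of 15 had their lowest value on vehicle replicate 2 and 8 on Vascepa replicate 3. Among the degradation genes 0 of 10 were lowest on vehicle replicate 2 and 9 on Vascepa replicate 3, where their median lay at −1.03, against −0.54 for the chaperones. This difference between roles was not tested. The 9 genes with an ERSE, printed above, had a median difference of −0.28 and a median within-group SD of 0.64. The 18 tested genes whose promoters held no ERSE had a median difference of −0.26 and a median within-group SD of 0.40. On vehicle replicate 1 the ERSE genes lay at 0.57 from the vehicle mean and the others at 0.29. The values were −0.54 and −0.23 on vehicle replicate 2, and −0.11 and −0.036 on vehicle replicate 3. The sets lay closer on Vascepa replicates 1, 2 and 3. There the ERSE genes lay at 0.31, −0.36 and −0.62, against 0.22, −0.27 and −0.52 for the others. These values are descriptions, and a match in the promoter window does not show that a factor was bound.

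Most of the other genes of the same pathways were also lower in the mean, with list medians of −0.20 to −0.098 as deposited, and limma called none of them (adjusted p of at least 0.976). Of 24 further ER folding genes 19 were lower, with a median of −0.20. The smallest p values were those of Fkbp14, a prolyl isomerase of collagen folding, and Cnpy3, a helper of GRP94, at −0.42 ± 0.17 and −0.55 ± 0.24. Of 23 further degradation genes 22 were lower, with a median of −0.18, led by Erlin2 at −0.67 ± 0.31 and Man1b1 at −0.33 ± 0.19. Of 25 further translocation and signal peptidase genes 18 were lower, with a median of −0.14, with Srprb at −0.34 ± 0.17 and Srp72 at −0.47 ± 0.35.

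Of 18 further stress signalling genes, which include the PERK targets Atf4, Ddit3 and Trib3, 14 were lower, with a median of −0.15. Creb3l2 and Mbtps2, a protease that releases ATF6, differed by −0.71 ± 0.40 and −0.54 ± 0.31. Chaperones of the cytosol and mitochondria had a median of −0.098 with 19 of 23 lower, and Hspb8 and Dnajb1 differed by −0.31 ± 0.16 and −0.41 ± 0.21. Their median within-group SD was 0.25, against 0.49 for the 32 ER genes. For the further folding, degradation, translocation and stress signalling genes it was 0.34, 0.26, 0.35 and 0.27. At an unadjusted p under 0.05, Fkbp14 alone passed among the genes of these 5 lists, against 2.68% of all genes tested.

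When each array was weighted by its estimated quality, limma called 9 of the 32 genes, all lower in Vascepa livers, beside 30.4% of all genes. They were Creld2, Edem1, Edem2, Eif2ak3, Os9, Pdia6, Sec61a1, Sel1l and Ssr1, with adjusted p from 0.0109 to 0.0491. The weights put 39.5 on Vascepa replicate 2 and at most 2.33 on any other array, and their estimation did not converge fully. With these weights the fit set Vascepa replicate 2 largely alone against the vehicle arrays. Those were weighted unequally, at 0.60, 0.47 and 2.33 for vehicle replicates 1, 2 and 3.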

How the data were processed

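Liver RNA was labelled with biotin and hybridised to Affymetrix arrays. The authors deposited log2 values made with Affymetrix Expression Console and RMA, per the submitters' processing notes; their versions and the array's genome build: not given in the sources used here. The values were used as deposited. Of 41345 probes, 23521 carried 1 gene symbol, 1814 several and 16010 no entry in the platform annotation. For 23328 of the probes with 1 symbol the gene ID was found in the RefSeq table (GRCm38.p6), and the symbol given there was used. Per gene, the cluster with the highest mean was kept, and genes under the median probe mean (2.65) were left out, which left 13493. Probes with several symbols stayed out of the tests.

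Vascepa and vehicle (3 arrays each) were compared by the linear models and moderated statistics of limma 3.58.1 (lmFit, eBayes; R 4.3.3), with Benjamini-Hochberg adjustment over all 13493 genes. Recovery in this comparison was simulated in 10 runs with 200 changed genes each. Of genes changed by log2 1, 26.1% were recovered, and of those changed by log2 2, 75.6%, with 3.53% false calls. Smaller changes were not simulated. The noise was drawn independently for each gene and array, without the shared shifts between arrays seen here, so these rates may not hold for these data. The genes and lists were chosen with earlier results of these data known. Values per array were given for a named set of 10 genes and for any gene with non-overlapping groups; of each other list, the 2 genes with the smallest p were named. Of 229 listed genes 215 were matched. Alternatives covered filtering, centring, quantile normalization, the prior, array weights, the replicate block, a small nucleolar RNA covariate, averaging of clusters and leaving out each array.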

Additional observations from a re-analysis of the deposited data

How the results depend on the processing

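No ER gene passed an adjusted p under 0.05 in any setting run except array weights, which called 9 of the 32 ER genes (16 at an unadjusted p under 0.05) and 4100 of all genes (5902 unadjusted). The same weights called 5 other ER folding genes, 3 other degradation genes, 5 other translocation genes, 5 other stress signalling genes and 4 cytosolic and mitochondrial chaperones. They turned Derl3 to 0.10 and Ern1 to −0.38. All genes at an unadjusted p under 0.05 numbered 362 as reported, 757 without the intensity filter, 106 with the 75th percentile filter and 809 with the small nucleolar RNA covariate, which called 3 genes at an adjusted p under 0.05 and marked 2 ER genes at an unadjusted p under 0.05 (Ern1 and Dnajb9), beside 6.0% of all genes. Centring on the median of all probes marked 1 ER gene (Dnajb9), beside 2.85% of all genes. Whether replicate numbers pair the samples is not given in the labels. Deviations of same-numbered arrays from their group means correlated at 0.606, 0.108 and −0.129 over all genes. Over the ER genes they correlated at 0.56, 0.49 and −0.331. Differently numbered pairs ran from −0.634 to 0.573 over all genes and from −0.745 to 0.586 over the ER genes. Deviations within a group of 3 arrays constrain one another, so these values cannot settle the pairing. The fit with a replicate block marked 1 ER gene (Syvn1) at an unadjusted p under 0.05 and called none, beside 3.25% of all genes marked.

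Centring on the genes tested, chosen after seeing the data, turned Derl2 to 0.041, Dnajc3 to 0.021, Erp44 to 0.043, Hsp90b1 to 0.025, Manf to 0.055, P4hb to 0.026, Pdia3 to 0.0043 and Xbp1 to 0.095. Repeated quantile normalization turned Derl2 to 0.036, Erp44 to 0.0094, Manf to 0.048 and Xbp1 to 0.033, and averaging clusters turned Derl2 to 0.059. The small nucleolar RNA covariate turned Atf6 to 0.17, Calr to 0.020, Canx to 0.16, Creld2 to 0.041, Dnajb11 to 0.077, Dnajc3 to 0.15, Edem3 to 0.28, Erp44 to 0.11, Hsp90b1 to 0.29, Hspa5 to 0.070, Hyou1 to 0.35, Os9 to 0.032, Pdia3 to 0.082, Sec61b to −0.0048 and Xbp1 to 0.14. The cause was not tested in any of these cases.

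Leaving out each array, which leaves 2 in its group, gave 141 to 2018 genes and 0 to 6 ER genes at an unadjusted p under 0.05, the 6 without Vascepa replicate 1, where 15% of all genes were marked. Log2 differences then ranged from −0.57 to 0.20 for Atf6, −0.72 to 0.13 for Canx, −0.78 to 0.19 for Creld2, −0.19 to 0.041 for Derl2, −0.34 to 0.13 for Derl3, −0.43 to 0.072 for Dnajb11, −0.27 to 0.17 for Dnajc3, −0.90 to 0.19 for Edem3, −0.37 to 0.38 for Ern1, −0.20 to 0.12 for Erp44, −0.43 to 0.26 for Hsp90b1, −0.60 to 0.18 for Hspa5, −0.84 to 0.33 for Hyou1, −0.19 to 0.11 for Manf, −1.18 to 0.074 for Os9, −0.34 to 0.16 for Pdia3, −0.19 to 0.54 for Sec61b and −0.17 to 0.11 for Xbp1. Without a change of sign, they ranged from −1.33 to −0.15 for Sel1l, −1.11 to −0.043 for Syvn1, −1.002 to −0.064 for Sec61a1, −0.91 to −0.14 for Edem1, −0.67 to −0.15 for Eif2ak3, −0.61 to −0.058 for Pdia6, −0.58 to −0.035 for Calr, −0.55 to −0.036 for Ssr1, −0.46 to −0.13 for Herpud1, −0.45 to −0.22 for Edem2, −0.40 to −0.018 for Sdf2l1 and −0.13 to −0.018 for P4hb. Array weights gave −0.13 for Dnajb9 and −0.047 for Herpud1.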
